A study of Rattus norvegicus with 12 samples.

Results

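The genes described here encode the proteins of the mitochondrial ribosome. They were taken as every row of the deposited count table whose gene name begins with Mrpl or Mrps and a digit, which gave 73 of 30560 gene rows, 43 named Mrpl and 30 named Mrps. The 73 rows carry 72 distinct symbols, because Mrpl42 stands in the table under 2 gene identifiers. A symbol was found for 72 rows in the RefSeq gene table of assembly GRCr8, and Mrps36 was found there as an older name of Kgd4.

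The mitochondrial ribosome translates the few messenger RNAs of the mitochondrial chromosome, which encode core subunits of the respiratory chain and ATP synthase. Its ribosomal RNAs are made inside the organelle, whereas all of its proteins are encoded in the nucleus, translated in the cytosol and imported. Reads of these genes in a mitochondrial preparation therefore come from nuclear genes. The roles of the proteins given below are those described for human and other mammalian mitoribosomes or for their bacterial counterparts.

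The study compared ways of purifying mitochondria from rat skeletal muscle for RNA sequencing. All 12 libraries came from 1 wild-type male Wistar Kyoto rat aged 14 weeks, from separate aliquots of a pooled muscle homogenate, and RNase A had been added to all 4 preparations. The mitoplast_RNase group was made of mitoplasts, mitochondria without their outer membrane, obtained from organelles captured on magnetic beads with an antibody. The IP_RNase_ProK group was made of bead-captured mitochondria treated also with proteinase K, which digests exposed protein, the IP_RNase group of bead-captured mitochondria without that protease, and the crude_RNase group of mitochondria pelleted by differential centrifugation. Each group had 3 libraries. Since nothing separates animals or cultures, p-values and SDs measure only the spread between aliquots of 1 homogenate. The crude_RNase libraries were made from 6.3 ng of RNA and the bead-isolated ones from 40 ng, so that the isolation method and the RNA input cannot be told apart.

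Between 3325430 and 7123045 reads were counted per library. Genes of the mitochondrial chromosome took 3.28% ± 0.719 of the counts in mitoplast_RNase, 2.75% ± 0.653 in IP_RNase_ProK, 6.51% ± 3.95 in IP_RNase and 49.5% ± 7.18 in crude_RNase (mean ± SD, n = 3 in every group), with 10.9% in replicate 3 of IP_RNase. Of the 8 skeletal muscle markers that were measured, 0 stood at 0 counts in any library. The same held for the listed markers of fibroblasts and matrix, endothelium, macrophages, erythroid cells and Schwann cells. Olfactory receptor genes, taken as genes that skeletal muscle does not normally transcribe, also had medians of 30.0 to 49.0 reads per library. A count above 0 therefore does not by itself show the RNA of a cell type. The summed level of the muscle markers is given in CPM (counts per library scaled by the TMM method of edgeR). It was 416 to 558 in mitoplast_RNase, 387 to 407 in IP_RNase_ProK, 399 to 498 in IP_RNase and 4940 to 6220 in crude_RNase.

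The mitoribosomal genes were counted in all 12 libraries, and 0 of the 73 stood at 0 counts in any library. Their counts were low. The median gene had 75.5 to 82.0 reads per library in mitoplast_RNase, 75.0 to 94.5 in IP_RNase_ProK, 65.0 to 75.5 in IP_RNase and 67.0 to 84.5 in crude_RNase. These medians were close to those of all nuclear genes in the same libraries, which were 79.0 to 89.0, 79.0 to 97.0, 70.0 to 76.0 and 63.0 to 78.0 reads in the same order of groups. Mrps21l, a gene named as like Mrps21, had 2 to 10 reads per library and did not pass the filter on low counts, and the other 72 rows were tested.

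Olfactory receptor genes, taken as genes that skeletal muscle does not normally transcribe, gave a level of counting within each library against which the mitoribosomal genes could be set. Neither set was adjusted for gene length. Of the 73 mitoribosomal genes, 62 to 66 had more reads than the median of the 1115 olfactory receptor genes in mitoplast_RNase, 65 to 66 in IP_RNase_ProK, 63 to 66 in IP_RNase and 66 to 69 in crude_RNase. The number above the 95th percentile of the olfactory receptor genes was 4 to 8 in mitoplast_RNase, 5 to 8 in IP_RNase_ProK, 2 to 6 in IP_RNase and 15 to 17 in crude_RNase. Most mitoribosomal genes thus stood between the median and the 95th percentile of the olfactory receptor genes in every library, and the crude_RNase libraries had the most genes above that range. The median of all nuclear genes lay in that range too, at 63.0 to 97.0 reads beside olfactory receptor medians of 30.0 to 49.0. How many of all genes lay above either line was not counted, so that these numbers cannot be read as particular to the mitoribosomal genes. Summed over the 73 genes, there were 9.93 ± 0.574 mitoribosomal reads for every 100 olfactory receptor reads in mitoplast_RNase, 9.94 ± 0.126 in IP_RNase_ProK, 9.46 ± 0.453 in IP_RNase and 12.2 ± 0.916 in crude_RNase (mean ± SD, n = 3 in every group). All tested genes moved in this direction too. When counts were scaled to the olfactory receptor genes, their median log2 fold change against crude_RNase was -0.11 in mitoplast_RNase, -0.12 in IP_RNase_ProK and -0.21 in IP_RNase.

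**Figure D1:**
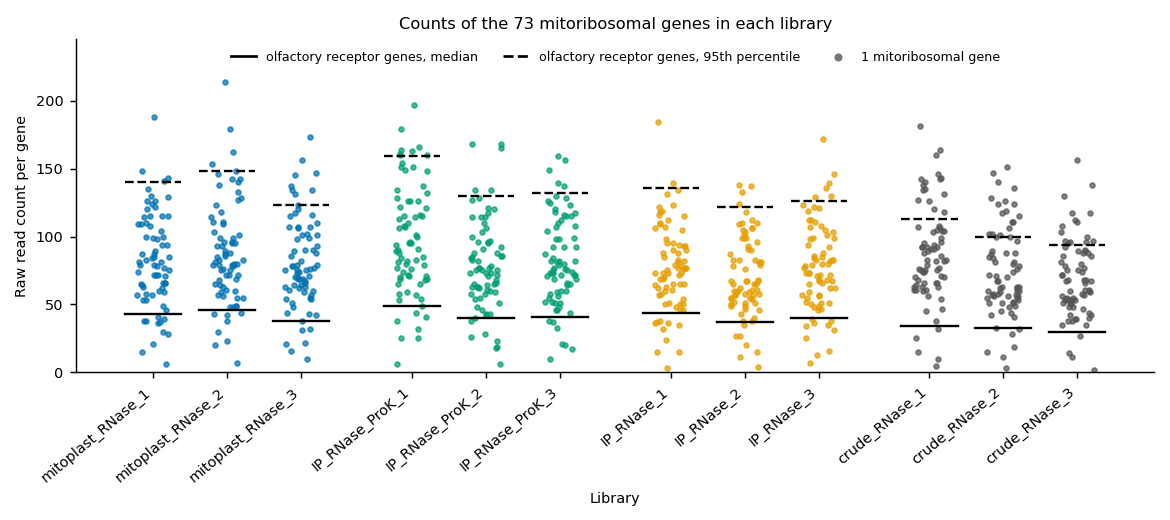
Raw read count of each of the 73 mitoribosomal genes (points) in each of the 12 libraries, with the median (solid line) and the 95th percentile (dashed line) of the 1115 olfactory receptor genes of the same library. The points reach down to between 2 and 10 reads for Mrps21l, and 15 to 17 of them lie above the dashed line in the crude_RNase libraries, against 2 to 8 in the bead-isolated libraries. The number of all genes above that line was not counted.

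As a share of all reads, the 73 genes together held 0.151%, 0.152% and 0.157% in the mitoplast_RNase libraries, 0.157%, 0.155% and 0.155% in IP_RNase_ProK, 0.155%, 0.155% and 0.145% in IP_RNase and 0.0975%, 0.0761% and 0.0748% in crude_RNase. All 9 bead-isolated libraries were higher than all 3 crude_RNase libraries. The mean share exceeded that of crude_RNase by 0.0705 percentage points in mitoplast_RNase, by 0.0728 in IP_RNase_ProK and by 0.069 in IP_RNase, each with an exact two-sided permutation p of 0.1 (0.2 adjusted over the 6 pairs of groups), the smallest that 3 libraries against 3 can give.

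The direction turned when the reads of the mitochondrial chromosome and of rRNA genes were left out of the total. On that basis the 73 genes held 0.157%, 0.157% and 0.162% of the remaining reads in mitoplast_RNase, 0.160% in each IP_RNase_ProK library, 0.164%, 0.161% and 0.163% in IP_RNase and 0.172%, 0.171% and 0.170% in crude_RNase. The shares in the bead-isolated libraries were now the lower ones, again without overlap, with differences from crude_RNase of -0.0126 percentage points in mitoplast_RNase, -0.011 in IP_RNase_ProK and -0.00865 in IP_RNase (exact permutation p = 0.1 each, 0.15 adjusted over the 6 pairs). Between the bead-isolated groups the largest of these differences was -0.00392 percentage points, in mitoplast_RNase against IP_RNase, with overlapping ranges and an exact permutation p of 0.2 (0.24 adjusted). The ranges of IP_RNase_ProK and IP_RNase did not overlap, and IP_RNase_ProK was lower by a difference of -0.00239 percentage points (exact permutation p = 0.1, 0.15 adjusted).

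**Figure D2:**
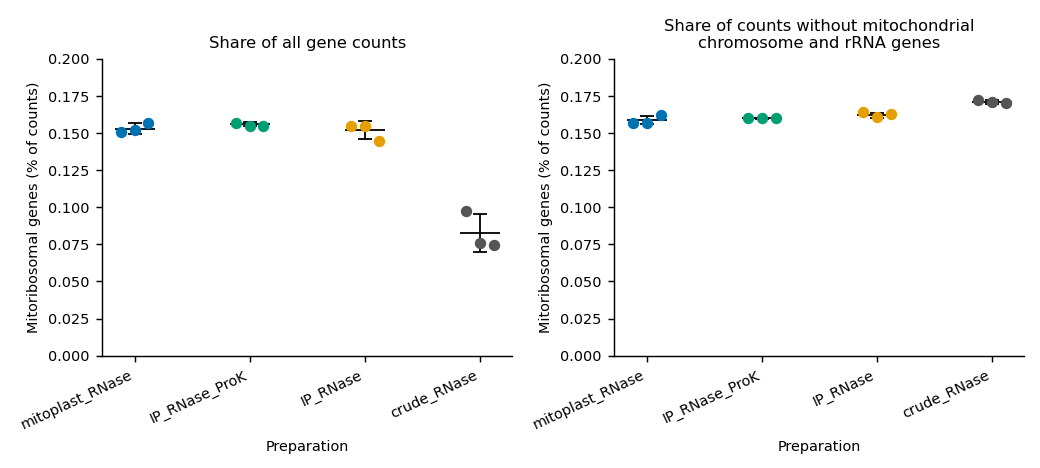
Percentage of reads held by the 73 mitoribosomal genes in each library (points), with the mean (horizontal line) and SD (error bar) of 3 libraries, out of all gene counts (left) and out of counts without the mitochondrial chromosome and rRNA genes (right). The crude_RNase libraries lie below the others on the left, at 0.0748% to 0.0975%, and above them on the right, at 0.170% to 0.172%.

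Relative to the mitochondrial messenger RNAs that the finished ribosome translates, the preparations differed much more. For every 1000 reads of the 13 mitochondrial messenger RNAs there were 80.0, 82.3 and 104 reads of mitoribosomal genes in mitoplast_RNase, 105, 90.8 and 74.8 in IP_RNase_ProK, 40.4, 60.7 and 25.9 in IP_RNase, and 4.25, 2.64 and 2.96 in crude_RNase. No bead-isolated library overlapped crude_RNase on this measure. It mostly follows the mitochondrial messenger RNA reads, which numbered 56598 to 218473 in the bead-isolated libraries and 1509336 to 2052635 in crude_RNase. The mitoribosomal reads themselves numbered 5163 to 7160 and 5058 to 6416. The same measure for other nuclear genes was not computed, so that the difference cannot be read as particular to the mitoribosomal genes. The IP_RNase libraries lay below those of mitoplast_RNase and IP_RNase_ProK, and the lowest of them was replicate 3, the library with the 10.9% mitochondrial share.

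Large and small subunit genes were compared as a ratio within each library. The large subunit holds the peptidyl transferase centre and the small subunit reads the messenger RNA. By symbol, Mrpl reads exceeded Mrps reads by a ratio of 1.55 ± 0.0552 in mitoplast_RNase, 1.55 ± 0.0502 in IP_RNase_ProK, 1.52 ± 0.0486 in IP_RNase and 1.51 ± 0.0606 in crude_RNase (mean ± SD, n = 3 in every group). The 6 differences between groups were at most 0.0357, with exact permutation p of 0.5 to 1.0 (0.9 to 1.0 adjusted over the 6 pairs). By place in the ribosome, with Mrps18a and Mrps30 counted to the large subunit and Mrps36 left out, the mean ratio was 1.76 in mitoplast_RNase, 1.75 in IP_RNase_ProK, 1.73 in IP_RNase and 1.72 in crude_RNase, with overlapping ranges and exact permutation p of 0.6 to 0.9 (0.9 adjusted). With 3 libraries against 3 such a test cannot fall below 0.1 and does not show that the ratios are equal.

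Under TMM scaling, the levels of single genes were compared across the 4 preparations. The ratio of a gene's highest to its lowest group mean was 1.24 in the median gene and at most 1.77, and 66 of the 72 tested genes stayed under 1.5. Across these 72 genes, Spearman's rho between the group means of 2 preparations lay between 0.90 and 0.96. This describes genes within shared homogenate, with gene length and base composition in common, and carries no test. The crude_RNase mean was the highest of the 4 in 43 genes and the lowest in 7. The same count over all tested genes was not made, so that these numbers cannot be read as particular to the mitoribosomal genes. Under scaling to the total count, in contrast, 70 to 71 of the 72 genes were called higher than in crude_RNase in each bead-isolated group, as were 94.8% to 95.3% of all genes. The median log2 fold changes of the mitoribosomal genes were then 0.88 to 0.92, beside 1.03 to 1.09 for all genes. The scatter between the 3 replicates, relative to Poisson counting error, was 1.23 in mitoplast_RNase, 1.08 in IP_RNase_ProK, 1.12 in IP_RNase and 1.94 in crude_RNase (chi-square per degree of freedom over 72 genes), so that in the bead-isolated groups most of the spread was of the size that counting gives.

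Differences between preparations were tested for each gene with edgeR's quasi-likelihood test, fitted on all 26483 genes that passed the filter, with Benjamini-Hochberg adjustment and a threshold of 0.05. Against crude_RNase, a minority of the mitoribosomal genes was lower in the bead-isolated preparations, and 0 were higher. The numbers of the 72 were 6 lower in mitoplast_RNase, 8 lower in IP_RNase_ProK and 4 lower in IP_RNase. Over all tested genes, 4.54% were lower in mitoplast_RNase, 5.04% in IP_RNase_ProK and 5.09% in IP_RNase, and 0.997%, 1.45% and 1.26% were higher in the same order. The mitoribosomal share was 8.33% in mitoplast_RNase, 11.1% in IP_RNase_ProK and 5.56% in IP_RNase, so that the 4 genes called in IP_RNase were a share near that of all genes. DESeq2 called fewer genes, 3, 2 and 1 in that order (4.17%, 2.78% and 1.39% of the 72), beside 3.47%, 3.64% and 3.79% of all genes, so that in IP_RNase_ProK and IP_RNase its share was below that of all genes. Under scaling to the olfactory receptor genes, edgeR called 11, 13 and 24 lower (15.3%, 18.1% and 33.3%), beside 6.61%, 7.49% and 16.9% of all genes. Under scaling to the total count, which follows the mitochondrial reads, the fold changes of all 18 calls turned positive and 70, 71 and 70 genes were called higher (97.2%, 98.6% and 97.2%), as were 95.3%, 95.3% and 94.8% of all genes.

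These counts depended on single libraries. In mitoplast_RNase the 6 became 2 without its replicate 1, 3 without its replicate 2 and 2 without crude_RNase replicate 2, which are shares of 2.74%, 4.11% and 2.74% beside 3.64%, 3.76% and 4.03% of all genes. In IP_RNase_ProK the 8 became 4, 5 and 4 without its replicates 1, 2 and 3, and 3 without crude_RNase replicate 2, or 5.48%, 6.85%, 5.56% and 4.11% beside 3.75%, 3.97%, 4.08% and 4.4% of all genes. In IP_RNase the 4 became 1 without its replicate 2, 2 without its replicate 3 and 2 without crude_RNase replicate 1, or 1.37%, 2.74% and 2.74% beside 4.26%, 4.38% and 5.12% of all genes. Without these single libraries the mitoribosomal share was thus near or below that of all genes in mitoplast_RNase and in IP_RNase, and in IP_RNase_ProK without crude_RNase replicate 2. Without mitoplast_RNase replicate 3 or crude_RNase replicate 1 or 3, the mitoplast_RNase share was 6.94%, 8.22% and 8.22%, beside 3.8%, 5.48% and 3.95% of all genes. In IP_RNase_ProK it was 11% and 9.59% without crude_RNase replicate 1 or 3, beside 5.95% and 4.33%. In IP_RNase it was 4.11%, 4.11% and 5.48% without its replicate 1 or crude_RNase replicate 2 or 3, beside 3.93%, 5.43% and 4.54%. In these comparisons the summed skeletal muscle markers were also lower than in crude_RNase, with all 8 called lower by edgeR in each and median log2 fold changes of -3.51 in mitoplast_RNase, -3.62 in IP_RNase_ProK and -3.59 in IP_RNase, and their part in the mitoribosomal differences was not tested. All 6 fibroblast and matrix markers were lower too, with summed levels of 390 to 397 CPM in mitoplast_RNase, 379 to 386 in IP_RNase_ProK, 386 to 408 in IP_RNase and 1780 to 1930 in crude_RNase, and their part was not tested either. Of 5 endothelial markers 0 passed in any of the 3 comparisons, of 5 macrophage markers 2 were lower in each, of 2 erythroid markers 1 was lower in each, and of 3 Schwann cell markers 1, 1 and 0 were lower. All libraries came from aliquots of the same homogenate, so that these marker differences lie between preparations. In them the isolation method and the RNA input cannot be told apart.

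The median of the set lay slightly below that of all tested genes, while 16, 17 and 15 of the 72 lay above it in mitoplast_RNase, IP_RNase_ProK and IP_RNase. The median log2 fold change of the 72 genes against crude_RNase was -0.20 in mitoplast_RNase, -0.16 in IP_RNase_ProK and -0.15 in IP_RNase, where the median of all tested genes was between 0 and 0.01. Without crude_RNase replicate 3 the IP_RNase median was -0.09. Values below 0 were found in 55, 55 and 56 of the 72 genes in the same order, against 48.9%, 49.3% and 48.7% of all genes. These 3 comparisons share the crude_RNase libraries. At an unadjusted edgeR p under 0.05, 18 genes were lower in mitoplast_RNase, 20 in IP_RNase_ProK and 18 in IP_RNase (25%, 27.8% and 25% of the 72, against 9.95%, 10.5% and 10.5% of all genes). At that level 0, 1 and 0 were higher, where 6.74%, 7.3% and 7.43% of all genes were. The CPM ranges lay wholly below crude_RNase in 19, 21 and 15 genes (26.4%, 29.2% and 20.8%, against 10.7%, 11.3% and 10.8% of all genes) and wholly above it in 0, 3 and 0 (8.26%, 9.12% and 8.61% of all genes). Under scaling to the total count the medians became 0.88, 0.92 and 0.88 while those of all genes moved to 1.08, 1.09 and 1.03, so that relative to all genes the mitoribosomal medians stood at -0.20, -0.16 and -0.15. The 95% interval of the log2 fold change lay within a change of 2-fold in either direction for 69 of 72 genes in mitoplast_RNase, 69 in IP_RNase_ProK and 70 in IP_RNase.

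**Figure D3:**
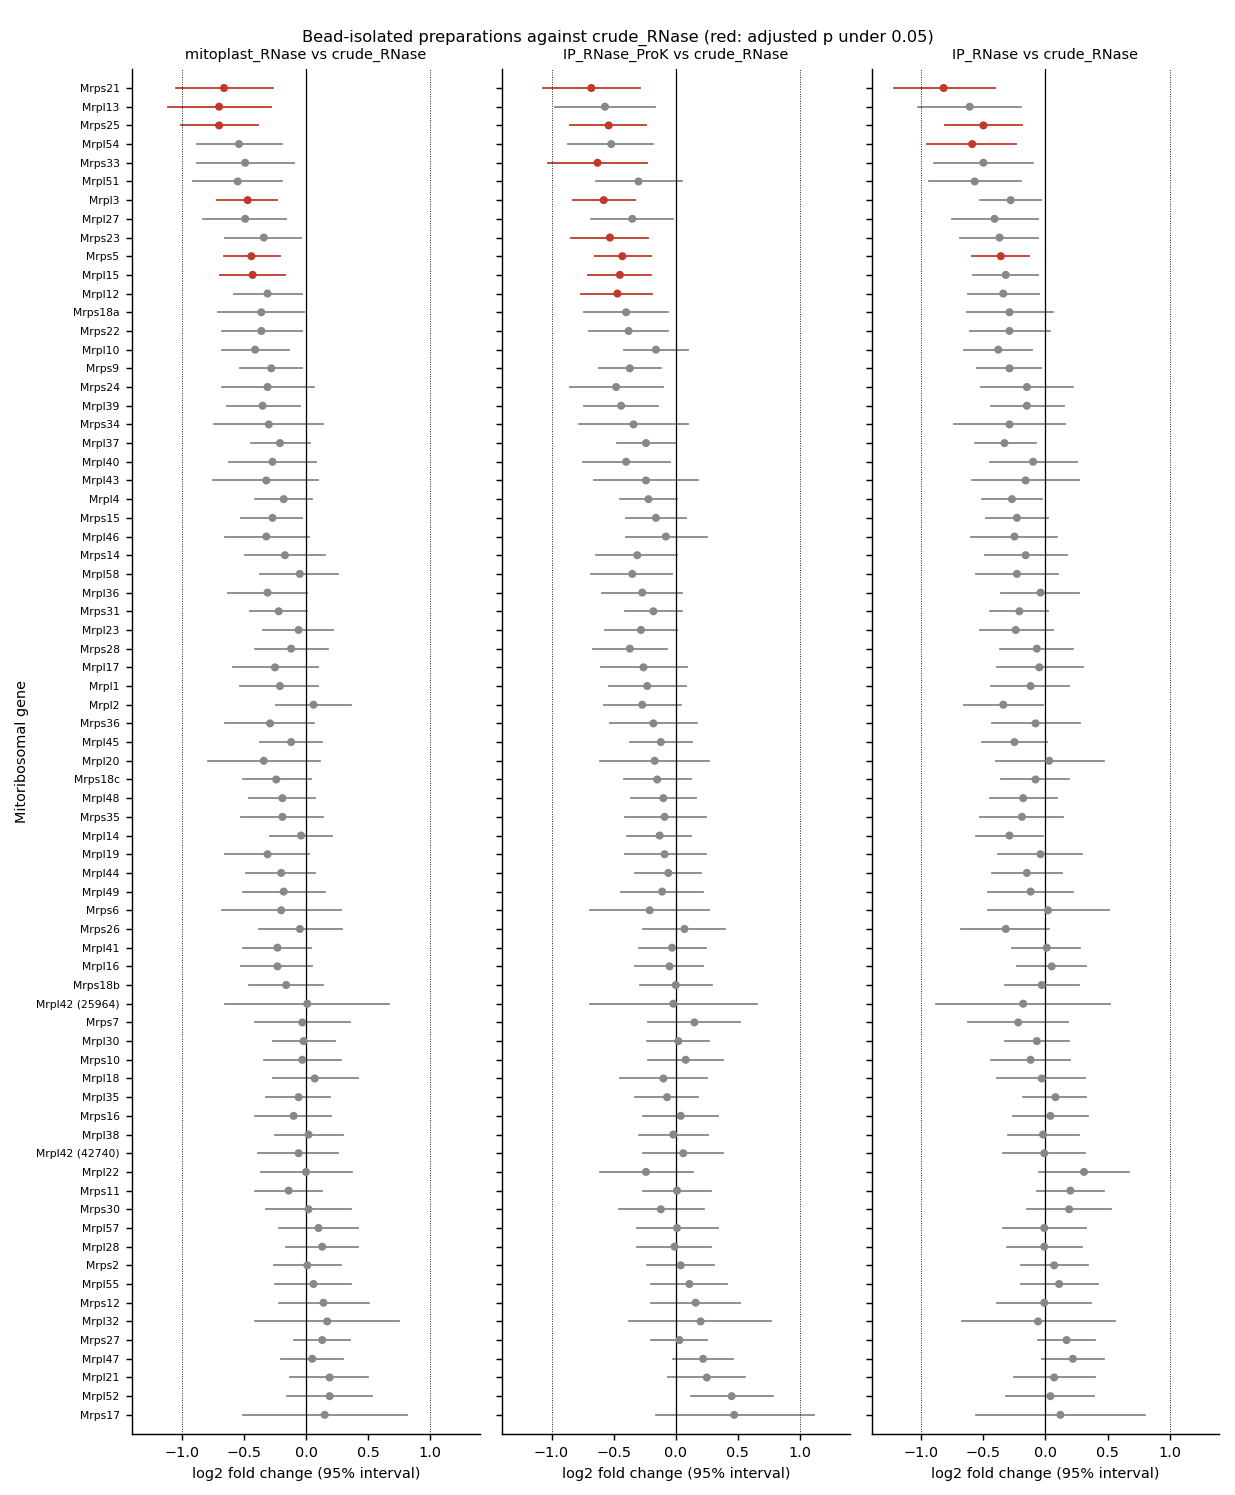
Log2 fold change of each of the 72 tested mitoribosomal genes against crude_RNase under TMM scaling (points) with its 95% interval (lines), for mitoplast_RNase (left), IP_RNase_ProK (middle) and IP_RNase (right), with the genes ordered by their mean over the 3 panels and dotted lines at a 2-fold change. Red marks the 6, 8 and 4 genes with an edgeR adjusted p under 0.05, all on the lower side. The number after Mrpl42 is the end of its identifier, and scaling to the total count moves the medians from -0.20, -0.16 and -0.15 to 0.88, 0.92 and 0.88.

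Across the 3 comparisons with crude_RNase, 10 different genes passed the test at least once, 5 Mrpl and 5 Mrps. Mrps5, Mrps21 and Mrps25 passed in all 3, Mrpl3 and Mrpl15 in 2, and the other 5 in 1. The directions below are those of TMM scaling. Of the 18 single calls, 3 held when any 1 of the 12 libraries was left out, which were Mrps25 in mitoplast_RNase, Mrpl3 in IP_RNase_ProK and Mrps21 in IP_RNase. DESeq2 kept 6 of the 18, which were Mrps5, Mrps25 and Mrpl3 in mitoplast_RNase, Mrps5 and Mrpl3 in IP_RNase_ProK and Mrps21 in IP_RNase.

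Among the small subunit genes, Mrps5 encodes the counterpart of bacterial S5, a protein near the entry of the messenger RNA channel. It was counted at 26.3, 25.1 and 32.2 CPM in mitoplast_RNase, at 29.1, 25.3 and 29.3 CPM in IP_RNase_ProK, at 28.7, 29.4 and 29.8 CPM in IP_RNase and at 36.8, 37.5 and 38.7 CPM in crude_RNase. Every crude_RNase library stood above all 9 others. The log2 fold change against crude_RNase was -0.44 ± 0.113 in mitoplast_RNase (SE, edgeR adjusted p = 0.00877), -0.43 ± 0.112 in IP_RNase_ProK (edgeR adjusted p = 0.00962) and -0.36 ± 0.115 in IP_RNase (edgeR adjusted p = 0.0442). The call ended in mitoplast_RNase without its replicate 1 or 2 (edgeR adjusted p = 0.0666 and 0.104), and in IP_RNase_ProK without its replicate 2 (0.0913). In IP_RNase it ended without any 1 of 10 libraries (edgeR adjusted p of 0.0502 to 0.146), the exceptions being replicates 2 and 3 of mitoplast_RNase, and also with no filter on low counts (0.0512) or with the 2 groups fitted alone (0.0926).

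Mrps21, the counterpart of bacterial S21, showed the lowest fold change of the set in IP_RNase and was carried by few reads. Its raw counts were 39, 44 and 44 in mitoplast_RNase, 44, 46 and 38 in IP_RNase_ProK, 38, 27 and 35 in IP_RNase and 66, 56 and 42 in crude_RNase. After scaling these were 8.15, 8.64 and 9.64 CPM in mitoplast_RNase, 7.87, 10.2 and 8.12 CPM in IP_RNase_ProK, 8.86, 6.72 and 8.02 CPM in IP_RNase and 14.8, 15.0 and 11.8 CPM in crude_RNase, without overlap with crude_RNase. The log2 fold change against crude_RNase was -0.66 ± 0.192 in mitoplast_RNase (edgeR adjusted p = 0.0257), -0.68 ± 0.192 in IP_RNase_ProK (edgeR adjusted p = 0.0182) and -0.82 ± 0.202 in IP_RNase (edgeR adjusted p = 0.00471). In IP_RNase the call held without any 1 library, with edgeR adjusted p of up to 0.0429. The call in mitoplast_RNase ended without its replicate 1 (edgeR adjusted p = 0.118) or 2 (0.0932) or crude_RNase replicate 1 (0.0743) or 2 (0.094), and that in IP_RNase_ProK without its replicate 1 (0.124) or 3 (0.0782) or crude_RNase replicate 1 (0.0572) or 2 (0.0685). Whether reads were divided between Mrps21 and Mrps21l was not tested.

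Mrps25, a small subunit protein with no bacterial counterpart, was counted at 13.6, 15.7 and 14.0 CPM in mitoplast_RNase, at 18.1, 16.2 and 13.9 CPM in IP_RNase_ProK, at 18, 13.4 and 18.3 CPM in IP_RNase and at 24.2, 27.0 and 19.1 CPM in crude_RNase. The lowest crude_RNase library, replicate 3, was just above the highest of the others. Against crude_RNase the log2 fold change was -0.70 ± 0.155 in mitoplast_RNase (edgeR adjusted p = 0.00123), -0.54 ± 0.151 in IP_RNase_ProK (edgeR adjusted p = 0.0158) and -0.50 ± 0.154 in IP_RNase (edgeR adjusted p = 0.0368). Without single libraries the mitoplast_RNase call kept an edgeR adjusted p of at most 0.0187. In IP_RNase_ProK the call ended without its replicate 2 (edgeR adjusted p = 0.0507) or 3 (0.119) or crude_RNase replicate 2 (0.116), and in IP_RNase without its replicate 1 (0.0564) or 2 (0.228) or crude_RNase replicate 1 (0.0846) or 2 (0.155), or with the 2 groups fitted alone (0.08).

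Mrps23 and Mrps33, also proteins of the mitochondrial small subunit without a bacterial counterpart, were lower in IP_RNase_ProK. Mrps23 was counted at 19.6, 16.3 and 13.6 CPM in mitoplast_RNase, at 15.0, 12.9 and 15.4 CPM in IP_RNase_ProK, at 17.0, 16.2 and 15.3 CPM in IP_RNase and at 18.4, 23.8 and 21.0 CPM in crude_RNase. The mitoplast_RNase range overlapped crude_RNase, and the other ranges did not. The log2 fold change of Mrps23 in IP_RNase_ProK against crude_RNase was -0.53 ± 0.155 (edgeR adjusted p = 0.022), beside values of -0.34 in mitoplast_RNase and -0.37 in IP_RNase that did not pass. Mrps33 was counted at 7.94, 9.43 and 9.20 CPM in mitoplast_RNase, at 6.79, 9.54 and 7.91 CPM in IP_RNase_ProK, at 8.16, 9.46 and 8.70 CPM in IP_RNase and at 12.1, 12.8 and 12.3 CPM in crude_RNase. All 3 crude_RNase libraries were above the other 9. The log2 fold change of Mrps33 in IP_RNase_ProK was -0.63 ± 0.198 (edgeR adjusted p = 0.0394), beside -0.49 in mitoplast_RNase and -0.50 in IP_RNase, which did not pass. The Mrps23 call ended without IP_RNase_ProK replicate 1 (edgeR adjusted p = 0.0566) or 2 (0.129) or crude_RNase replicate 2 (0.134) or 3 (0.0529). The Mrps33 call ended without IP_RNase_ProK replicate 1 (edgeR adjusted p = 0.24) or 3 (0.103) or any crude_RNase replicate (0.0515, 0.0947 and 0.0768), or with the 2 groups fitted alone (0.0756).

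Among the large subunit genes, Mrpl3 encodes the counterpart of bacterial L3, which reaches toward the peptidyl transferase centre. It was counted at 22.8, 23.2 and 19.7 CPM in mitoplast_RNase, at 20.6, 19.5 and 21.2 CPM in IP_RNase_ProK, at 24.9, 25.6 and 24.5 CPM in IP_RNase and at 28.3, 33.2 and 30.3 CPM in crude_RNase. The crude_RNase libraries were the 3 highest. Its log2 fold change against crude_RNase was -0.47 ± 0.123 in mitoplast_RNase (edgeR adjusted p = 0.00868) and -0.58 ± 0.124 in IP_RNase_ProK (edgeR adjusted p = 0.000843), while -0.28 ± 0.123 in IP_RNase did not pass (edgeR adjusted p = 0.187). The IP_RNase_ProK call held without any 1 library, with edgeR adjusted p of at most 0.0103, and the mitoplast_RNase call ended without its replicate 3 (0.0794) or crude_RNase replicate 2 (0.0644).

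Mrpl15, the counterpart of bacterial L15, was counted at 22.8, 29.1 and 21.7 CPM in mitoplast_RNase, at 22.9, 26.0 and 23.9 CPM in IP_RNase_ProK, at 26.8, 25.4 and 27.3 CPM in IP_RNase and at 31.8, 40.4 and 27.2 CPM in crude_RNase. Its crude_RNase libraries spread widely, and replicate 3 lay within the range of mitoplast_RNase and of IP_RNase. The log2 fold change was -0.43 ± 0.129 in mitoplast_RNase (edgeR adjusted p = 0.0331) and -0.45 ± 0.129 in IP_RNase_ProK (edgeR adjusted p = 0.0189), and -0.32 ± 0.130 in IP_RNase did not pass. Without crude_RNase replicate 2 the edgeR adjusted p was 0.321 in mitoplast_RNase and 0.236 in IP_RNase_ProK. Both calls also ended without replicate 1 or 3 of the bead-isolated group, with edgeR adjusted p of 0.164 and 0.195 in mitoplast_RNase and 0.121 and 0.0656 in IP_RNase_ProK. The mitoplast_RNase call ended also with the 2 groups fitted alone (edgeR adjusted p = 0.0927).

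Mrpl12 encodes the stalk protein that in bacteria recruits translation factors, and its product is also known to bind the mitochondrial RNA polymerase. It was counted at 17.8, 20.2 and 24.1 CPM in mitoplast_RNase, at 20.2, 19.1 and 15.6 CPM in IP_RNase_ProK, at 22.2, 20.7 and 17.9 CPM in IP_RNase and at 23.8, 28.4 and 24.7 CPM in crude_RNase. Replicate 3 of mitoplast_RNase overlapped crude_RNase, and the other bead-isolated libraries did not. In IP_RNase_ProK its log2 fold change was -0.47 ± 0.141 (edgeR adjusted p = 0.0273), beside -0.31 in mitoplast_RNase and -0.34 in IP_RNase, which did not pass. That call ended without IP_RNase_ProK replicate 2 (edgeR adjusted p = 0.0568) or 3 (0.182) or crude_RNase replicate 2 (0.135), and also when the 2 groups were fitted alone (0.0505). Mrpl10, which holds the Mrpl12 stalk, and Mrpl1, of the separate stalk on the opposite side, passed in none of the comparisons. Mrpl10 averaged 19.0 ± 1.61 CPM in mitoplast_RNase, 22.5 ± 2.29 in IP_RNase_ProK, 19.3 ± 0.0878 in IP_RNase and 25.3 ± 1.77 in crude_RNase, and Mrpl1 averaged 16.2 ± 0.583, 16.0 ± 0.371, 17.3 ± 0.996 and 19.0 ± 4.43 CPM in the same groups (SD, n = 3 each).

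Mrpl13, the counterpart of bacterial L13, was counted at 7.94, 8.25 and 6.79 CPM in mitoplast_RNase, at 8.76, 9.32 and 7.05 CPM in IP_RNase_ProK, at 8.63, 8.71 and 7.1 CPM in IP_RNase and at 10.1, 13.7 and 14.0 CPM in crude_RNase. The ranges did not overlap with crude_RNase. For Mrpl13 the log2 fold change was -0.70 ± 0.205 in mitoplast_RNase (edgeR adjusted p = 0.0282), while -0.57 in IP_RNase_ProK (0.0818) and -0.61 in IP_RNase (0.0657) did not pass. The mitoplast_RNase call ended without any of its own replicates (edgeR adjusted p = 0.0698, 0.0544 and 0.132) or without crude_RNase replicate 2 (0.11) or 3 (0.126), or with the 2 groups fitted alone (0.0552). Mrpl54, a large subunit protein without a bacterial counterpart, was counted at 12.5, 11 and 15.3 CPM in mitoplast_RNase, at 10.5, 16.6 and 12.4 CPM in IP_RNase_ProK, at 14.0, 12.4 and 10.8 CPM in IP_RNase and at 21.5, 17.9 and 16.3 CPM in crude_RNase. Replicate 2 of IP_RNase_ProK overlapped crude_RNase, and the other bead-isolated libraries did not. The log2 fold change of Mrpl54 was -0.59 ± 0.178 in IP_RNase (edgeR adjusted p = 0.0295), beside -0.54 in mitoplast_RNase (0.0531) and -0.52 in IP_RNase_ProK (0.0556), which did not pass. Its call ended without IP_RNase replicate 2 (edgeR adjusted p = 0.0741) or 3 (0.157) or crude_RNase replicate 1 (0.177).

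**Figure D4:**
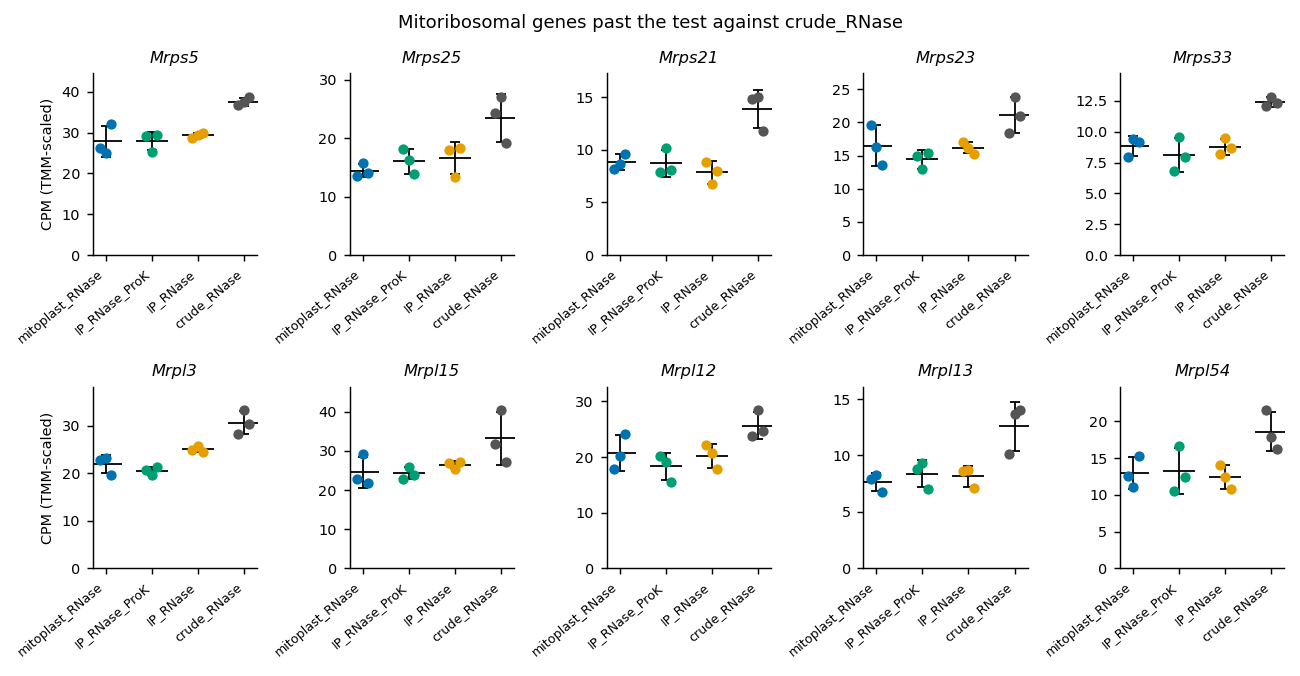
TMM-scaled CPM of the 10 mitoribosomal genes that passed the edgeR test against crude_RNase at least once, in each library (points), with the mean (horizontal line) and SD (error bar) of 3 libraries per preparation. The crude_RNase means are the highest in all 10 panels, for example 37.6 CPM for Mrps5 against 27.9 to 29.3 CPM in the other groups, a direction that turns under scaling to the total count. The genes were chosen for passing this test, all on the lower side, so that this direction follows in large part from the choice.

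The other genes with a particular structural or functional place did not pass in any comparison. Mrpl45, which anchors the human ribosome to the inner membrane, averaged 26.1 ± 1.02 CPM in mitoplast_RNase, 26.0 ± 2.16 in IP_RNase_ProK, 23.7 ± 3.65 in IP_RNase and 28.4 ± 2.64 in crude_RNase. Mrps12, of the decoding centre, averaged 12.2 ± 1.63, 12.3 ± 1.24, 11 ± 0.247 and 11.1 ± 0.632 CPM in the same groups (SD, n = 3 each). Its log2 fold changes against crude_RNase were 0.14 in mitoplast_RNase, 0.16 in IP_RNase_ProK and -0.01 in IP_RNase. Mrpl58, also known as Ict1, is a peptidyl-tRNA hydrolase built into the large subunit, and it averaged 16.9 ± 2.48 CPM in mitoplast_RNase, 13.8 ± 1.61 in IP_RNase_ProK, 14.9 ± 2.03 in IP_RNase and 17.4 ± 1.05 in crude_RNase (mean ± SD, n = 3 in every group).

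The 3 paralogues related to bacterial S18 occupy different places, Mrps18b and Mrps18c in the small subunit and Mrps18a in the large one. Their log2 fold changes against crude_RNase were -0.36, -0.40 and -0.29 for Mrps18a in mitoplast_RNase, IP_RNase_ProK and IP_RNase, which did not pass. For Mrps18b they were -0.16, 0 and -0.03, and for Mrps18c -0.24, -0.15 and -0.08, in the same order of groups. Mrps30, which despite its name belongs to the large subunit, had values of 0.02, -0.12 and 0.19. Mrps36 is known as a subunit of the alpha-ketoglutarate dehydrogenase complex and not of the ribosome, and its values of -0.29, -0.18 and -0.08 lay within the range of the ribosomal genes.

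The genes with the most reads, and so the smallest counting error, were Mrps27, Mrpl37, Mrpl4, Mrpl47 and Mrps5. Mrps27, a pentatricopeptide repeat protein of the small subunit, was counted at 39.3, 42.0 and 31.8 CPM in mitoplast_RNase, 35.2, 37.3 and 33.3 CPM in IP_RNase_ProK, 42.9, 34.3 and 39.4 CPM in IP_RNase and 32.1, 39.4 and 32.8 CPM in crude_RNase, with overlap between all groups. Its log2 fold changes against crude_RNase were 0.13, 0.03 and 0.17 in mitoplast_RNase, IP_RNase_ProK and IP_RNase, with an SE of 0.114 in IP_RNase. Mrpl37 gave -0.21, -0.24 and -0.33, Mrpl4, the counterpart of an exit tunnel protein of bacteria, gave -0.18, -0.22 and -0.27, and Mrpl47, the counterpart of bacterial L29, gave 0.05, 0.22 and 0.22 in the same order, none past the threshold. At the upper end in IP_RNase against crude_RNase stood Mrpl22, of the exit tunnel, at 0.31 ± 0.179, Mrpl47 at 0.22 ± 0.124 and Mrps11, of the small subunit platform, at 0.20 ± 0.133 (SE), none of which passed.

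The 2 identifiers of Mrpl42 had 53 to 95 reads per library under ENSRNOG00000042740 and 10 to 27 under ENSRNOG00000025964. If reads were split between near-identical copies by the counting, both values would be uncertain, and this was not tested. Neither identifier passed in any comparison.

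Grouped by subunit and ancestry, called genes were found in both subunits and in both ancestry classes. In mitoplast_RNase against crude_RNase, 3 of 45 large subunit genes and 3 of 26 small subunit genes were lower, with median log2 fold changes of -0.19 in both groups. In IP_RNase_ProK these numbers were 3 of 45 and 5 of 26, with medians of -0.13 and -0.17, and in IP_RNase they were 1 of 45 and 3 of 26, with medians of -0.12 and -0.18. Of the 41 tested proteins named for a bacterial counterpart, 5, 5 and 2 were lower in mitoplast_RNase, IP_RNase_ProK and IP_RNase, and of the 31 others 1, 3 and 2. Over all tested genes, 4.54%, 5.04% and 5.09% were lower in the same order. Differences between these classes were not tested.

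Among the bead-isolated preparations, removal of the outer membrane or treatment with proteinase K was accompanied by no call in the mitoribosomal genes. By edgeR and by DESeq2 alike, 0 of 72 passed in mitoplast_RNase against IP_RNase_ProK, in mitoplast_RNase against IP_RNase and in IP_RNase_ProK against IP_RNase. Over all genes edgeR called 0% in the first of these comparisons, 0.0227% higher and 0.132% lower in the second, and 0.0302% higher and 0.11% lower in the third. At an unadjusted edgeR p under 0.05 there was 1 gene higher and 0 lower in the first, where 1.45% and 1.35% of all genes were. In the second there were 1 higher and 2 lower (4.51% and 4.42% of all genes), and in the third 2 higher and 2 lower (4.39% and 4.47%). Ranges that did not overlap were found in 2 higher and 5 lower genes in the first comparison (4.71% and 4.76% of all genes), in 2 and 10 in the second (7.9% and 8.05%) and in 3 and 4 in the third (8.36% and 8.27%). The median log2 fold changes were -0.02, -0.04 and -0.02. In each comparison the 95% interval of all 72 genes lay within a 2-fold change in either direction, and the median gene's interval reached 0.31 to 0.32 to each side of its estimate, so that changes much smaller than 2-fold could have been missed.

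The nearest to a call was Mrpl22, which was counted at 11.6, 10.7 and 12.0 CPM in IP_RNase_ProK, against 15.2, 16.7 and 18.3 CPM in IP_RNase. The ranges did not overlap, and the log2 fold change was -0.55 ± 0.176 with an edgeR adjusted p of 0.276. The highest value in that comparison was that of Mrpl52, a large subunit protein without a bacterial counterpart, with 19.0, 16.6 and 17.1 CPM in IP_RNase_ProK, against 11.7, 12.9 and 15.1 CPM in IP_RNase (log2 fold change 0.41 ± 0.159, edgeR adjusted p = 0.433). In mitoplast_RNase, Mrpl2, the counterpart of an L2 protein of the peptidyl transferase region, had 20.5, 18.3 and 20.4 CPM, against 18.2, 13.7 and 12.8 CPM in IP_RNase (log2 fold change 0.40 ± 0.154, edgeR adjusted p = 0.426). Mrps11 had 20.9, 19.4 and 19.3 CPM in mitoplast_RNase, against 27.5, 26.4 and 21.5 CPM in IP_RNase (log2 fold change -0.34 ± 0.131, edgeR adjusted p = 0.426).

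**Figure D5:**
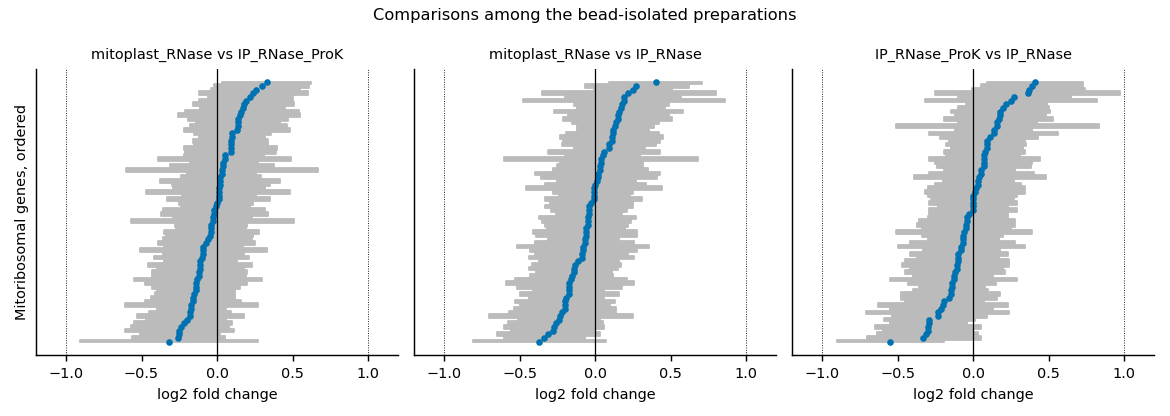
Log2 fold change (points) with its 95% interval (grey bars) of the 72 tested mitoribosomal genes, ordered by value within each panel, for mitoplast_RNase against IP_RNase_ProK (left), mitoplast_RNase against IP_RNase (middle) and IP_RNase_ProK against IP_RNase (right), with dotted lines at a 2-fold change. No interval reaches a dotted line, and the medians are -0.02, -0.04 and -0.02.

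Other genes of mitochondrial translation were taken from lists of assembly and rRNA modification factors, translation factors, aminoacyl-tRNA synthetases and mitoribosomal proteins with other symbols, again under TMM scaling. The counts below stand beside 4.54%, 5.04% and 5.09% of all tested genes lower in mitoplast_RNase, IP_RNase_ProK and IP_RNase against crude_RNase. In the same order, 0.997%, 1.45% and 1.26% of all tested genes were higher. No list was tested as a set. Of 5 mitoribosomal proteins with other symbols, 1 was lower in mitoplast_RNase and in IP_RNase against crude_RNase, and 0 in IP_RNase_ProK. This was Aurkaip1, a small subunit protein, with 43.1 ± 1.56 CPM in mitoplast_RNase, 49.7 ± 2.11 in IP_RNase_ProK, 47.0 ± 4.51 in IP_RNase and 58.7 ± 9.46 in crude_RNase (mean ± SD, n = 3 in every group). Its log2 fold change was -0.44 ± 0.0987 in mitoplast_RNase (edgeR adjusted p = 0.00164) and -0.31 ± 0.0994 in IP_RNase (edgeR adjusted p = 0.0469). The first ended without crude_RNase replicate 2 (edgeR adjusted p = 0.0605), and the second without any 1 of 10 libraries (edgeR adjusted p of 0.0508 to 0.311), the exceptions being IP_RNase replicate 3 and crude_RNase replicate 1, by DESeq2 (adjusted p = 0.155) and with the 2 groups fitted alone (edgeR adjusted p = 0.121).

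Of the 15 translation factors, 2 were lower in mitoplast_RNase, 1 in IP_RNase_ProK and 2 in IP_RNase, where 1 was also higher. Lrpprc, which stabilises mitochondrial messenger RNAs, was counted at 54.5, 61.5 and 61.5 CPM in mitoplast_RNase, at 64.7, 63.7 and 60.7 CPM in IP_RNase_ProK, at 64.4, 61.5 and 64.8 CPM in IP_RNase and at 74.2, 85.7 and 76.8 CPM in crude_RNase. All 3 crude_RNase libraries were above the rest. Its log2 fold change was -0.41 ± 0.0856 in mitoplast_RNase (edgeR adjusted p = 0.000516), -0.32 ± 0.0847 in IP_RNase_ProK (edgeR adjusted p = 0.00975) and -0.31 ± 0.0863 in IP_RNase (edgeR adjusted p = 0.0162). The first held without any 1 library, the second ended without IP_RNase_ProK replicate 3 (edgeR adjusted p = 0.0608) or crude_RNase replicate 2 (0.0721), and the third without IP_RNase replicate 2 (0.0706) or crude_RNase replicate 2 (0.0818).

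Tufm, the mitochondrial elongation factor that delivers aminoacyl-tRNA, averaged 24.8 ± 2.19 CPM in mitoplast_RNase, 29.3 ± 1.28 in IP_RNase_ProK, 26.6 ± 1.95 in IP_RNase and 35.5 ± 4.74 in crude_RNase (mean ± SD, n = 3 in every group). It passed at -0.51 ± 0.119 in mitoplast_RNase (edgeR adjusted p = 0.00265) and -0.40 ± 0.120 in IP_RNase (edgeR adjusted p = 0.0277). Without crude_RNase replicate 3 these adjusted p became 0.0623 and 0.215, and the second also ended without IP_RNase replicate 1 (0.139) or 2 (0.0933), by DESeq2 (0.101) or with the 2 groups fitted alone (0.0749). Guf1, a GTPase related to bacterial LepA, was the 1 factor higher in IP_RNase, at 38 ± 1.63 CPM, against 30.2 ± 1.74 CPM in crude_RNase (mean ± SD, n = 3 in every group). Its log2 fold change there was 0.34 ± 0.109 (edgeR adjusted p = 0.0477), and leaving out any 1 of the 12 libraries ended the call (edgeR adjusted p of 0.0553 to 0.204), as did DESeq2 (0.164), olfactory receptor scaling (0.501), no filter on low counts (0.053), the replicate block (0.0648) and the fit of the 2 groups alone (0.12).

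Of 28 tested rows for assembly and rRNA modification factors, 1 was higher in mitoplast_RNase and in IP_RNase_ProK against crude_RNase, and 0 passed in IP_RNase. This was Nsun4 under ENSRNOG00000046192, a methyltransferase that modifies the small ribosomal RNA and takes part in joining the subunits. It was counted at 31.3, 33.4 and 33.7 CPM in mitoplast_RNase, at 40.9, 36.2 and 34.8 CPM in IP_RNase_ProK, at 36.8, 29.4 and 24.0 CPM in IP_RNase and at 25.8, 23.0 and 24.7 CPM in crude_RNase. The mitoplast_RNase and IP_RNase_ProK libraries were all above crude_RNase, while replicate 3 of IP_RNase lay within it. Its log2 fold change was 0.42 ± 0.126 in mitoplast_RNase (edgeR adjusted p = 0.0335) and 0.61 ± 0.123 in IP_RNase_ProK (edgeR adjusted p = 0.00032). The IP_RNase_ProK call held without any 1 library, and the mitoplast_RNase call ended without any of its own replicates (edgeR adjusted p = 0.0566, 0.112 and 0.111) or crude_RNase replicate 2 (0.111) or 3 (0.0764), by DESeq2 (adjusted p = 0.113) and under olfactory receptor scaling (edgeR adjusted p = 0.219). A second row named Nsun4, ENSRNOG00000012020, averaged 5.25 ± 0.627 CPM in mitoplast_RNase, 4.22 ± 0.612 in IP_RNase_ProK, 5.07 ± 1.03 in IP_RNase and 3.76 ± 1.27 in crude_RNase (mean ± SD, n = 3 in every group), and whether reads were divided between the 2 rows was not tested, so that the values are uncertain if they were. Of 18 tested aminoacyl-tRNA synthetases, 0 passed in any comparison with crude_RNase, with medians of -0.03, -0.03 and 0.02 in mitoplast_RNase, IP_RNase_ProK and IP_RNase.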

How the data were processed

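RNA from 12 mitochondrial preparations was sequenced as rRNA-depleted total RNA with a Zymo-Seq RiboFree kit, per the labels' protocols. Per the submitters' processing notes, FastQC 0.74, cutadapt 4.6, STAR 2.7.11a, HTSeq and the build mRatBN7.2 were used. For the annotation release, for strandedness and for reads that match more than 1 place, nothing is stated in the sources used here, so that overlapping genes and near-identical copies are uncertain. The authors deposited raw read counts per gene, and 0 columns of other samples were present.

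Groups came from titles and the design text, since the source and tissue labels of the crude libraries name immunoprecipitation. The protocol names hindlimb muscle and the design text gastrocnemius. The members and gene lists were chosen with earlier results of these data known. Genes were tested with edgeR 4.0.16 in R 4.3.3 (quasi-likelihood F test, TMM scaling, filterByExpr with a minimum count of 10, Benjamini-Hochberg adjustment, threshold 0.05) on all 12 libraries in 1 model of 4 groups, which left 26483 genes. The fit was tested on simulated counts drawn with the same dispersion for every gene and group. The greater scatter of the crude_RNase libraries was therefore not covered by that check. Standard errors belong to the fitted log2 fold changes, whose spread is moderated over all genes. Over all genes, replicates of every group differed by more than sampling noise (chi-square per degree of freedom of 1.24 to 12.1 by pair). Shares and ratios were compared with exact permutation tests in SciPy 1.17.1. PCR copies are not independent molecules.

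Alternatives were DESeq2 1.42.0, scaling to the total count or to olfactory receptor genes, no filter, the replicate number as a block, the 2 groups alone, and each library left out. Levels per coding length were planned but not used here, because protein lengths of the build were not given, so that levels of different genes are not ranked. Gene coordinates were not used here. Genes named are those past the threshold, the 5 with the most counts, the 3 highest and the 3 lowest fold changes in IP_RNase against crude_RNase, members with a fixed structural role and members not tested. Mrpl2, Mrpl42, Mrpl52 and the second Nsun4 row were chosen after their values were seen.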

Additional observations from a re-analysis of the deposited data

How the results depend on the processing

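Against crude_RNase, in the order mitoplast_RNase, IP_RNase_ProK and IP_RNase, DESeq2 called 3, 2 and 1 mitoribosomal genes (all genes 3.47%, 3.64% and 3.79% lower). Olfactory receptor scaling called 11, 13 and 24, all lower (all genes 6.61%, 7.49% and 16.9% lower, medians -0.31, -0.28 and -0.36, all genes -0.11, -0.12 and -0.21). Total-count scaling called 70, 71 and 70, all higher (all genes 95.3%, 95.3% and 94.8% higher, medians 0.88, 0.92 and 0.88). With its 2 groups alone IP_RNase gave 2. Leaving out single libraries gave 2 to 7, 3 to 8 and 1 to 4 calls, medians of -0.22 to -0.17, -0.18 to -0.14 and -0.15 to -0.09, and share differences of 0.0665 to 0.0778, 0.0688 to 0.0801 and 0.065 to 0.0763 percentage points. Without mitochondrial and rRNA reads those differences were -0.0126, -0.011 and -0.00865.

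Total-count scaling reversed, in mitoplast_RNase, Mrps5 (0.64), Mrpl15 (0.64), Mrpl3 (0.60), Mrps25 (0.37), Mrps21 (0.41), Mrpl13 (0.38), Lrpprc (0.67), Aurkaip1 (0.65) and Tufm (0.57). In IP_RNase_ProK it reversed Mrps5 (0.66), Mrpl15 (0.63), Mrpl3 (0.51), Mrpl12 (0.61), Mrps25 (0.54), Mrps23 (0.55), Mrps21 (0.40), Mrps33 (0.45) and Lrpprc (0.77), and in IP_RNase Mrps5 (0.67), Mrps25 (0.52), Mrpl54 (0.43), Mrps21 (0.20), Lrpprc (0.72), Aurkaip1 (0.72) and Tufm (0.62). It follows the mitochondrial share of the total by construction.

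Between bead-isolated groups 0 mitoribosomal genes were called under any setting run. Medians moved to 0 (total count) and 0.06 (olfactory receptor) in mitoplast_RNase against IP_RNase, and to 0.04 and 0.08 in IP_RNase_ProK against IP_RNase. With libraries left out they ran from -0.06 to 0 in mitoplast_RNase against IP_RNase_ProK.

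No pairing of libraries by replicate number was seen, since 18 same-number pairs correlated at -0.102 to 0.066 and 36 other pairs at -0.09 to 0.123. Counting error weakens such correlations, so that this check cannot exclude a pairing. With the number as a replicate block the counts of calls were again 6, 8 and 4, and of the 18 member calls 0 ended, while the Guf1 call in IP_RNase ended (edgeR adjusted p = 0.0648). DESeq2 ended 12 of the 18. The cause of these losses was not tested. At 17.8 to 164 reads per tested gene and library, small changes were not detectable.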
